A study of Mus musculus with 4 samples.

Results

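Solute carriers that move sugars, amino acids and monocarboxylates across membranes were followed in mouse liver on 4 two-colour arrays. The members were all genes whose annotated symbol begins with Slc1a, Slc2a, Slc3a, Slc5a, Slc6a, Slc7a, Slc16a, Slc36a, Slc38a or Slc43a, counting only probes that name 1 gene. They numbered 68 of the 13954 genes with a single symbol, read by 87 probes, and fell into 9 of the 10 families, with none from Slc36. One of them, Slc6a19os, is annotated in RefSeq as a long noncoding RNA and is a member by its symbol only. All mice were male C57Bl/6J, an inbred strain with no engineered allele named. The diets were an atherogenic diet with added high fat for 24 or 6 weeks and an atherogenic diet without it (called plain here) for 24 or 6 weeks, each set on its own array against liver of mice on standard chow. The diet RNA carried the dye Cy5 and the chow RNA Cy3. The chow is labelled with the matching duration on 3 arrays, and on the plain 6-week array without a duration. Each condition had 1 array, dyes were never swapped, and nothing in the sources used here gives the diets' composition, the animals' age or whether animals were pooled.

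Sugar transporters of the Slc2 family let glucose, fructose or urate run down their gradient, and hepatocytes use one of them to take up and release glucose. Slc5 proteins couple uptake to sodium. Amino acids enter through several routes. Slc1 carries glutamate and small neutral amino acids, and Slc38 carries glutamine and other neutral ones. Slc43a1 of the Slc43 family carries branched-chain ones, and Slc7 light chains form pairs with a heavy chain of Slc3. Slc6 carries neurotransmitters and osmolytes such as taurine and betaine, and Slc16 carries lactate, ketone bodies and related acids.

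Values are log2 ratios of diet over chow, so that 1 is a doubling and 0 equals chow. They rest on reading the deposited numbers as base 10 logarithms, which is inferred from their spread. Between 27951 and 28806 probes had a value on an array, and the median gene lay between -0.01 and 0.05. The arrays give ratios and no levels, so the liver label could not be checked against absolute marker levels, and fewer cells of a type cannot be told apart from less RNA per cell. Of 20 macrophage markers, 13 rose over chow and none fell, with medians of 0.69 and 0.70 on the high-fat arrays (24 and 6 weeks) and 0.97 (24 weeks) and 0.99 (6 weeks) for the plain diet. Stellate and myofibroblast markers rose for 7 of 13 and fell for 1, and hepatocyte markers fell for 2 of 14 and rose for none. Markers of bile duct rose for 3 of 9, of neutrophils for 2 of 10 with 1 fall, of T, B and NK cells for 2 of 14, and of endothelium for 1 of 10. Of all genes 12% passed the same threshold, 6.25% upward and 5.72% downward. Near that share were the hepatocyte (14.3%), T, B and NK cell (14.3%) and endothelial (10%) lists. The macrophage (65%), stellate and myofibroblast (61.5%), bile duct (33.3%) and neutrophil (30%) lists were above it. The part of these cell populations in the transporter values was not tested.

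Cystine import opens the description, because its carrier shows one of the largest separations between the 2 diets and has a promoter with known nutrient-response elements. Slc7a11 exchanges cystine for glutamate and works as a pair with the heavy chain Slc3a2. The RefSeq promoters of both genes (GRCm38.p6, 250 bases before to 50 bases after the start, minus strand, chr3:50443564-50443863 and chr19:8713848-8714147) are shown, with matches to the amino acid response element TGATGNAA, searched on both strands, in capitals.

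Slc7a11: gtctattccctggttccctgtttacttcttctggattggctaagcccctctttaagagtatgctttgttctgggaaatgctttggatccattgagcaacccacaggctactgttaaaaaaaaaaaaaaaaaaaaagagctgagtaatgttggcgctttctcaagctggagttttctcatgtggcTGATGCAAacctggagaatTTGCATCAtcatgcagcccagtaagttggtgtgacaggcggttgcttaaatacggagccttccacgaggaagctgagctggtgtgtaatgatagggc

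Slc3a2: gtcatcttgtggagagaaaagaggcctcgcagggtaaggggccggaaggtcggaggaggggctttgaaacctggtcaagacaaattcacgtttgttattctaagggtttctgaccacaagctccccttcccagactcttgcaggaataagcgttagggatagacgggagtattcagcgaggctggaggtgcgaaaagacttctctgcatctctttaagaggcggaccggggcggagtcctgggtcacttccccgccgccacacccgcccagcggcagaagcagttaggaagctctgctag

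The Slc7a11 window holds 2 matches in opposite orientation, beginning 66 and 47 bases before the start, and the Slc3a2 window holds none. The element occurs in 3.97% of all 32851 promoter windows in the table, or, counted by gene, in 4.51% of 27025 genes and in 3 of the 47 members with a window (6.38%: Slc1a4, Slc7a7 and Slc7a11). A match describes these letters and is not a site shown to be in use.

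Slc7a11 stood at 0.03 and 0.30 on the high-fat arrays (24 and 6 weeks) and at 0.64 and 1.43 on the plain arrays (24 and 6 weeks). Both high-fat values lay below both plain values. The difference of high fat minus plain was -0.87 ± 0.17 (limma SE, 4 arrays; adjusted p = 0.0275), while the mean over all diets, 0.60 ± 0.22, did not pass against chow (adjusted p = 0.122). Its partner Slc3a2 was at 0.20 and 0.03 with high fat and at 0.63 and 0.40 with the plain diet (24 and 6 weeks). The 2 diets did not overlap for Slc3a2 either, but its difference of -0.40 ± 0.14 did not pass (adjusted p = 0.0961). The other light chains that pair with Slc3a2 did not share one pattern. Slc7a5, which carries large neutral amino acids, was below chow on all arrays, at -0.48 and -0.19 with high fat and -0.87 and -0.37 with the plain diet. Its mean of -0.47 ± 0.12 lay just outside the threshold (adjusted p = 0.0534), and passed with the arrays scaled to a common spread (adjusted p = 0.0426). Slc7a8, with a similar substrate range, was at -0.45 and -0.48 with high fat and at -0.21 and -0.16 with the plain diet (mean -0.32 ± 0.09, adjusted p = 0.0704). Slc7a7, which exports cationic amino acids, was at 0 and -0.07 with high fat and at 0.33 and 0.49 with the plain diet (difference -0.45 ± 0.14, adjusted p = 0.0823).

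Slc7a10, a carrier of small neutral amino acids including D-serine, ran the other way from Slc7a11. It was at 0.85 and 0.77 on the high-fat arrays and at 0.05 and 0.12 on the plain arrays (24 and 6 weeks). High fat minus plain was 0.73 ± 0.14 (adjusted p = 0.0273). The cationic amino acid carriers showed smaller ratios. Slc7a1 was at 0.02 and -0.11 with high fat and at -0.02 and -0.09 with the plain diet, and its mean had a 95% interval from -0.24 to 0.14. Slc7a2, the form known from hepatocytes, was at -0.09 and -0.43 with high fat and at 0.30 and -0.19 with the plain diet. A second probe of Slc7a2 was left out for a missing value. It was at -0.003 on the high-fat 24-week array and at 0.08 and -0.52 on the plain arrays (24 and 6 weeks). The kidney and gut cystine pair, the heavy chain Slc3a1 and the light chain Slc7a9, differed in spread: Slc7a9 lay between -0.28 and -0.16 on the arrays, whereas Slc3a1 ranged between -0.64 and 0.44. Slc3a1 was at -0.15 and 0.44 at 24 weeks (high-fat and plain) and at -0.64 and -0.48 at 6 weeks. In the Slc7 family as a whole 0 of 13 genes passed for diet over chow, with 7 at an unadjusted p under 0.05 (53.8%, against 30.7% of all genes). The remaining Slc7 members, Slc7a3, Slc7a4, Slc7a12, Slc7a13 and Slc7a15, had means between -0.27 and 0.20.

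**Figure D1:**
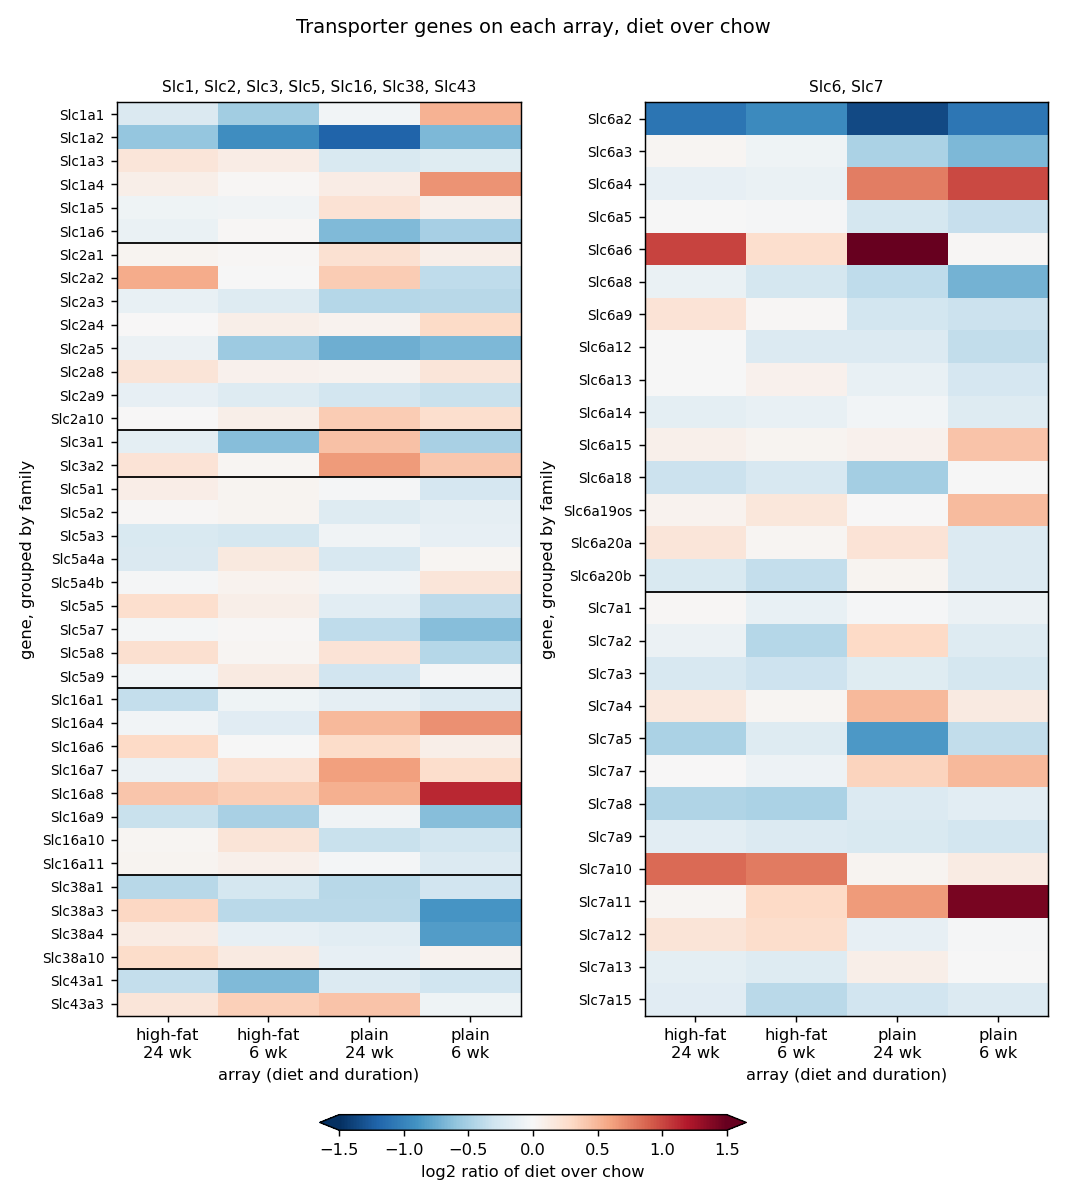
Each row is 1 of the 67 transporter genes with a value on all 4 arrays, each column an array, and colour gives the log2 ratio of diet over chow (red above chow, blue below, scale ending at 1.5 in either direction). Most cells are pale, while Slc6a2 and Slc1a2 are blue on all 4 arrays, Slc6a6 is darkest at 1.60 on the plain 24-week array and Slc7a11 reaches 1.43 on the plain 6-week array.

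Counts over all families were then set beside those over all genes. Of the 67 members with a value on every array, 1 rose and 4 fell for diet over chow (7.46%), where 12% of all 13705 genes fitted passed the same threshold, an adjusted p of 0.05 over all genes, 6.25% upward and 5.72% downward. The split was 0 and 3 with each array centred on its median, and 1 and 5 with the arrays scaled to a common spread. At an unadjusted p under 0.05 there were 20 members (29.9%), about the share of all genes (30.7%). Of the members, 2 on the high-fat 24-week array, 0 on the high-fat 6-week array, 3 on the plain 24-week array and 3 on the plain 6-week array were at least 2-fold from chow, where the share of all genes was 2.51%, 2%, 3.43% and 5.95% in the same order. Below chow on all 4 arrays were 20 members (29.9%, against 20% of all genes), and above chow on all 4 were 12 (17.9%, against 20.7%). Among other solute carriers the shares were 29.7% below and 13.3% above, so the larger share below chow is not particular to the members. The median of the member means was -0.06, that of 165 other solute carriers -0.05, and that of all genes 0.00. Among the other solute carriers 6 rose and 20 fell (15.8%).

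Family medians lay close together. They were -0.05 for Slc1 (6 genes), 0.10 for Slc2 (8), 0.05 for Slc3 (2), -0.05 for Slc5 (9), -0.12 for Slc6 (15), -0.06 for Slc7 (13), 0.07 for Slc16 (8), -0.30 for Slc38 (4) and -0.08 for Slc43 (2). Slc38 was lowest, with 3 of 4 means below 0, and its medians were 0.20 and -0.19 on the high-fat arrays and -0.28 and -0.56 on the plain arrays (24 and 6 weeks). Slc5 was the family with the narrowest means, between -0.26 and 0.04. Within Slc6 and Slc7 the spread between genes, from -1.12 to 0.72 and from -0.47 to 0.60, was wider than any distance between family medians. Order among families is therefore a description, and no test of it was made.

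**Figure D2:**
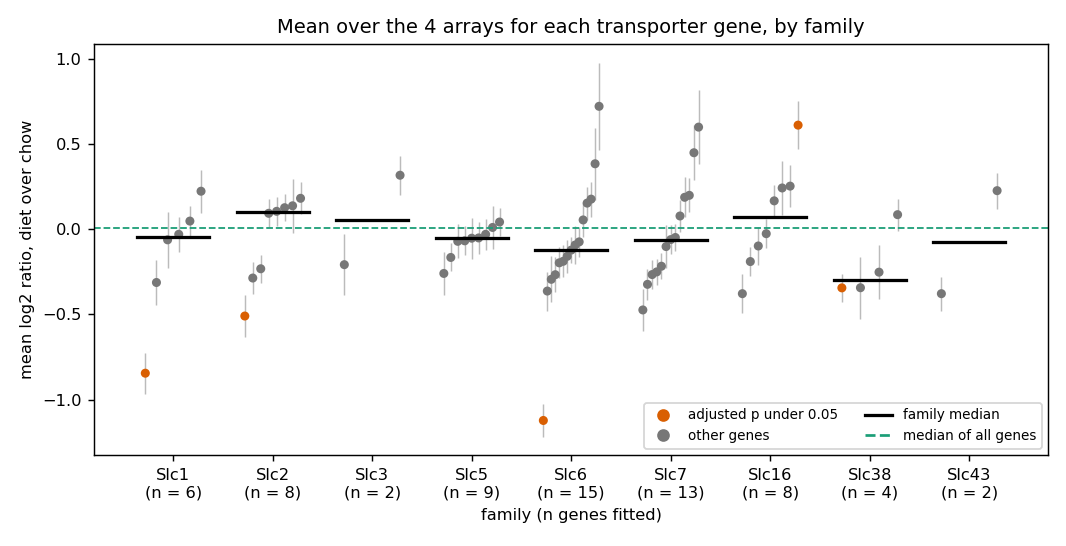
Points are the mean log2 ratio over the 4 arrays of each transporter gene (vertical axis), with the limma SE as a bar, by family (horizontal axis); orange marks an adjusted p under 0.05, black lines are family medians and the dashed line is the median of all genes. The 5 orange genes lie in Slc1, Slc2, Slc6, Slc16 and Slc38, and every family median falls between -0.30 and 0.10.

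Among amino acid carriers, the glutamate transporter Slc1a2 had the largest fall among genes read by 1 probe. Known from glia and, in rodents, from hepatocytes around the central vein, it was at -0.58 and -0.93 on the high-fat arrays and at -1.20 and -0.67 on the plain arrays (24 and 6 weeks). All 4 arrays were below chow and the diets overlapped. The mean was -0.85 ± 0.12 (adjusted p = 0.011), a 1.8-fold fall, and without the plain 24-week array it was -0.73 and no longer passed (adjusted p = 0.0525). None of the related carriers passed for diet over chow as a gene mean. Slc1a3 as a gene mean was at 0.18 and 0.11 with high fat and at -0.23 and -0.18 with the plain diet. Its 2 probes differed. One was below chow on all 4 arrays, at -0.26 and -0.13 with high fat and -0.18 and -0.43 with the plain diet. The other was at 0.61 and 0.34 with high fat and at -0.27 and 0.07 with the plain diet. Slc1a5, which carries glutamine, was at -0.06 and -0.05 with high fat and at 0.22 and 0.08 with the plain diet. Slc1a4, a carrier of alanine, serine and cysteine, was at 0.09 and 0.01 with high fat and at 0.12 and 0.67 with the plain diet. Slc1a1 could not be read from its gene mean: 1 of its probes averaged -0.48 and the other 0.36, and the second had on the plain 24-week array a value shared by many probes. Slc1a6, known from cerebellar Purkinje cells, was at -0.10 and 0.02 with high fat and at -0.66 and -0.50 with the plain diet (difference 0.54 ± 0.14, adjusted p = 0.0486).

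Glutamine carriers of the Slc38 family split between a steady and a varying pattern. Slc38a1, a sodium-coupled glutamine importer, was at -0.42 and -0.26 on the high-fat arrays and at -0.41 and -0.29 on the plain arrays. Its mean was -0.34 ± 0.08 (adjusted p = 0.0413). The 4 values lay close together, yet the call ended without any 1 of the arrays (adjusted p between 0.0638 and 0.151), with arrays centred on their medians (adjusted p = 0.05005) and in the fit on single probes (adjusted p = 0.0540). Slc38a3, a glutamine carrier of hepatocytes, was at 0.31 and -0.40 with high fat and at -0.40 and -0.88 with the plain diet (24 and 6 weeks). Its high-fat 6-week and plain 24-week values were equal, so the diets did not separate cleanly, although the term for high fat passed (0.59 ± 0.14, adjusted p = 0.0436). Slc38a4, also known from liver, was at 0.12 and -0.13 with high fat and at -0.16 and -0.84 with the plain diet (difference 0.50 ± 0.16, adjusted p = 0.0799). For both genes the plain 6-week array was the lowest. Slc38a10 lay between -0.13 and 0.28 as a gene mean. Its 3 probes differed, with means from -0.18 to 0.35. Of the Slc43 carriers, Slc43a1, which takes up branched-chain amino acids, was below chow throughout, at -0.35 and -0.66 with high fat and at -0.21 and -0.30 with the plain diet (mean -0.38 ± 0.10, adjusted p = 0.0566). Slc43a3 was at 0.19 and 0.36 with high fat and at 0.42 and -0.06 with the plain diet.

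Of the 8 Slc2 carriers of sugars and urate 1 fell for diet over chow, and none passed between the diets or durations as gene means. Slc2a2, the main glucose carrier of hepatocytes, was at 0.56 and -0.01 on the high-fat arrays and at 0.38 and -0.38 on the plain arrays (24 and 6 weeks). Its mean of 0.14 ± 0.16 had a 95% interval from -0.25 to 0.52 and did not pass (adjusted p = 0.595). Both 24-week values were above both 6-week values, and the difference of 0.66 ± 0.14 did not pass (adjusted p = 0.28). Slc2a1, the widely expressed glucose carrier, was at 0.04 and 0.02 with high fat and at 0.23 and 0.09 with the plain diet, with an interval of its mean from -0.10 to 0.29. Its 2 probes moved apart between diets: the first was at -0.22 and -0.26 with high fat and 0.35 and 0.30 with the plain diet, and the second at 0.30 and 0.30 with high fat and 0.10 and -0.13 with the plain diet. The first passed for high fat over plain in the fit on single probes (-0.57 ± 0.14, adjusted p = 0.0402). The fructose carrier Slc2a5 passed for diet over chow, at -0.08 and -0.55 with high fat and -0.74 and -0.67 with the plain diet, with a mean of -0.51 ± 0.12 (adjusted p = 0.0469), the member nearest the threshold from inside. It was lost without the plain 24-week (0.178), the plain 6-week (0.109) or the high-fat 6-week array (0.120) and in the fit on single probes (0.0517), given as adjusted p. Slc2a3, the neuronal glucose carrier, had a mean of -0.29 ± 0.09 (adjusted p = 0.0921), below chow on all 4 arrays. The urate carrier Slc2a9 was at -0.12 and -0.19 with high fat and at -0.28 and -0.34 with the plain diet (mean -0.23 ± 0.08, adjusted p = 0.114). Slc2a4, Slc2a8 and Slc2a10 had means between 0.10 and 0.18.

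No Slc5 gene passed for diet over chow, for high fat or for duration, and none reached an unadjusted p under 0.05 for diet over chow. The sodium-glucose carriers Slc5a1 and Slc5a2, known from gut and kidney, had means of -0.03 ± 0.09 and -0.07 ± 0.08. The lowest Slc5 mean belonged to the choline carrier Slc5a7, at -0.03 and 0.01 with high fat and -0.38 and -0.64 with the plain diet (difference 0.50 ± 0.15, adjusted p = 0.0681). The iodide carrier Slc5a5 had a difference of 0.45 ± 0.14 (adjusted p = 0.0753). Slc5a3, Slc5a4a, Slc5a4b, Slc5a8 and Slc5a9 had means between -0.17 and 0.04.

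The Slc6 family held the lowest and the highest mean of all members. Slc6a2, the noradrenaline transporter, had a gene mean of -1.12 ± 0.09 (adjusted p = 0.00244) and passed under every alternative run. Its 2 probes gave different pictures. One was at -2.13 and -1.84 on the high-fat arrays and at -2.60 and -2.17 on the plain arrays (24 and 6 weeks). The other was at -0.06 and -0.06 with high fat and -0.11 and -0.01 with the plain diet. The first averaged -2.19 ± 0.13 (adjusted p = 0.000599, fitted on single probes) and the second -0.06 ± 0.09 (adjusted p = 0.691). The gene mean describes neither probe. Slc6a6, which carries taurine, was at 1.01 and 1.60 at 24 weeks (high-fat and plain) and at 0.26 and 0.01 at 6 weeks. It doubled over chow or more on both 24-week arrays, its mean was 0.72 ± 0.26 (adjusted p = 0.116), and its difference of 24 minus 6 weeks was 1.17 ± 0.21 (adjusted p = 0.215).

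Other osmolyte and metabolite carriers of Slc6 lay nearer chow. The creatine carrier Slc6a8 was at -0.10 and -0.27 with high fat and at -0.38 and -0.70 with the plain diet. Its mean was -0.36 ± 0.11 (adjusted p = 0.0882), and its 2 probes averaged -0.70 and -0.03. The first of these passed on its own (adjusted p = 0.0247). The betaine carrier Slc6a12 was at -0.003 and -0.21 with high fat and at -0.21 and -0.37 with the plain diet. Slc6a13, a GABA and taurine carrier known from hepatocytes, was at -0.003 and 0.06 with high fat and at -0.11 and -0.25 with the plain diet. Slc6a9, a glycine carrier, was at 0.21 and 0.01 with high fat and at -0.27 and -0.32 with the plain diet (difference 0.41 ± 0.14, adjusted p = 0.0948). In the fit on single probes 1 of its 2 probes passed for high fat over plain (0.56 ± 0.15, adjusted p = 0.0468). The other did not (0.26 ± 0.14, adjusted p = 0.218). The serotonin transporter Slc6a4 was at -0.13 and -0.10 with high fat and at 0.77 and 0.99 with the plain diet. Its difference of -0.99 ± 0.14 (adjusted p = 0.0187) was the largest between the diets among the members. The dopamine transporter Slc6a3 went the opposite way, at 0.03 and -0.06 with high fat and -0.47 and -0.67 with the plain diet (0.55 ± 0.14, adjusted p = 0.0466). The remaining Slc6 members, Slc6a5, Slc6a14, Slc6a15, Slc6a18, Slc6a19os, Slc6a20a and Slc6a20b, had means between -0.27 and 0.18.

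**Figure D3:**
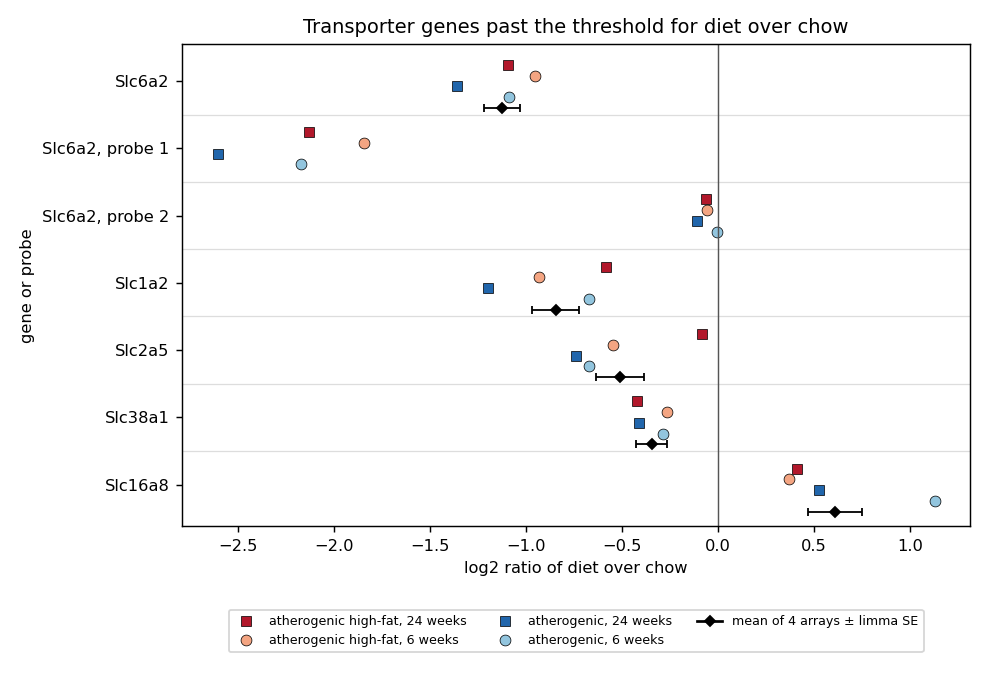
Horizontal positions are log2 ratios of diet over chow on each array (red, atherogenic high-fat; blue, atherogenic; squares 24 weeks, circles 6 weeks) for the 5 members past the threshold, with the mean of 4 arrays and its limma SE as a black diamond. The 2 probes of Slc6a2 are drawn separately, 1 near -2.19 and the other near -0.06.

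Monocarboxylate carriers held the single rise. Slc16a8, a lactate carrier known from retinal pigment epithelium, was at 0.41 and 0.37 on the high-fat arrays and at 0.53 and 1.13 on the plain arrays (24 and 6 weeks). Every array was above chow and the plain diet lay above the high-fat diet. Its mean was 0.61 ± 0.14 (adjusted p = 0.0399), which did not pass without the high-fat 24-week (adjusted p = 0.0673), the high-fat 6-week (adjusted p = 0.0643) or the plain 24-week array (adjusted p = 0.138), or with centred arrays (adjusted p = 0.0515). Slc16a1, the widely expressed lactate and ketone body carrier, was at -0.36 and -0.07 with high fat and at -0.13 and -0.20 with the plain diet (mean -0.19 ± 0.09, adjusted p = 0.193). Slc16a7, a high-affinity relative, was at -0.09 and 0.22 with high fat and at 0.62 and 0.26 with the plain diet. The lactate exporter Slc16a3 had a value on 3 arrays and was not fitted in the main model: it was at 0.25 on the high-fat 24-week array and at -0.34 and -0.40 on the plain arrays (24 and 6 weeks). Slc16a10, which carries aromatic amino acids, was at 0.03 and 0.19 with high fat and at -0.34 and -0.28 with the plain diet (0.41 ± 0.14, adjusted p = 0.0903). Slc16a4, a carrier of the family with less settled substrates, was at -0.04 and -0.17 with high fat and at 0.49 and 0.69 with the plain diet (-0.69 ± 0.15, adjusted p = 0.0348). A second probe of Slc16a4, left out for a missing value, was at -0.12 and -0.21 with high fat and 0.45 on the plain 6-week array. Slc16a6, Slc16a9 and Slc16a11 had means of 0.17, -0.38 and -0.03.

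The 2 atherogenic diets were then set against each other. Of the 67 members 7 passed for high fat over plain (10.4%, against 11.2% of all genes), 4 higher and 3 lower with high fat, where 3.99% of all genes were higher and 7.25% lower. Higher were Slc7a10, Slc38a3, Slc6a3 and Slc1a6, and lower were Slc6a4, Slc7a11 and Slc16a4. For Slc6a4, Slc7a11, Slc16a4, Slc6a3 and Slc1a6 the high-fat values were the nearer to chow, and for Slc7a10 the plain values were. With arrays centred on their medians 1 was higher and 3 were lower, and with arrays scaled to a common spread 1 was higher and 5 were lower. Slc7a10, Slc6a4, Slc7a11 and Slc16a4 passed in both, Slc38a3, Slc6a3 and Slc1a6 in neither, and Slc3a1 and Slc7a8 were lower with scaled arrays only. Ratios spread more widely on the plain arrays (SD across genes 0.45 and 0.52 at 24 and 6 weeks) than on the high-fat arrays (0.37 and 0.35). Over all members the 2 diets did not overlap for 39 of 67 genes (58.2%), and over all genes for 61.4%. The term rests on 1 residual degree of freedom, and without the term for duration 0 members and 8 of all genes passed in limma, with 15 members at an unadjusted p under 0.05.

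Hepatocyte markers differed between the diets most often of the marker lists, with 5 of 14 lower and 1 higher with high fat (42.9%). Of all genes 11.2% passed, 3.99% higher and 7.25% lower. Their medians were -0.31 and -0.37 with high fat and 0.36 and -0.17 with the plain diet (24 and 6 weeks). The 4 largest differences, singled out after their values were seen, were -2.02 for Serpina1a, -1.81 for Ttr, -1.57 for Trf and -1.53 for Alb, and each of these genes had, on at least 1 array, a probe whose value recurs across many probes. Of the macrophage markers 4 of 20 (20%) and of the neutrophil markers 3 of 10 (30%) were lower with high fat, and none higher. The neutrophil marker medians were 0.09 and 0.02 with high fat and 0.57 and 0.58 with the plain diet (24 and 6 weeks). The part of any of these cells in the values of the 7 members that passed was not tested.

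**Figure D4:**
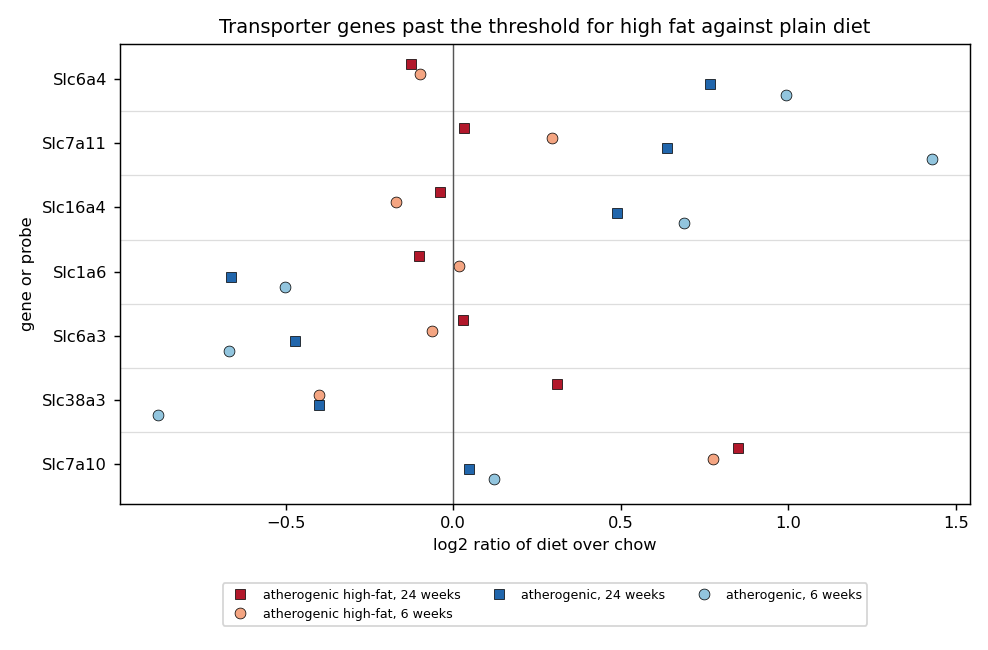
Horizontal positions are log2 ratios of diet over chow on each array (red, atherogenic high-fat; blue, atherogenic; squares 24 weeks, circles 6 weeks) for the 7 members past the threshold for high fat over plain, from the lowest difference (Slc6a4, -0.99) at the top to the highest (Slc7a10, 0.73) at the bottom. Red and blue do not overlap except for Slc38a3, where the high-fat 6-week and plain 24-week arrays share a value of -0.40.

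The comparison of 24 with 6 weeks gave 0 members past the threshold in limma, as for all genes (0% called), with 9 members (13.4%) and 1353 of all genes (9.87%) at an unadjusted p under 0.05. By size, Slc6a6 led, followed by Slc3a1 (0.71 ± 0.16, adjusted p = 0.301), Slc2a2 (0.66 ± 0.14, adjusted p = 0.28) and Slc38a3 (0.59 ± 0.14, adjusted p = 0.343), all higher at 24 weeks on both diets. Slc7a11 was lower at 24 weeks on both diets (-0.53 ± 0.17, adjusted p = 0.397).

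Genes that work beside the transporters were read from lists chosen for their roles. Of all genes 12% passed for diet over chow, 6.25% upward and 5.72% downward. Of 9 measured partners of transporters, 2 rose and none fell (22.2%). Emb, which escorts monocarboxylate carriers to the membrane, was at 0.35 and 0.43 with high fat and at 0.98 and 0.72 with the plain diet (mean 0.62 ± 0.12, adjusted p = 0.0276). Arrdc4, an arrestin that limits glucose uptake, had a mean of 0.53 ± 0.10 (adjusted p = 0.0221). Txnip of the same list had a mean of 0.13 ± 0.10 (adjusted p = 0.398). For high fat over plain 1 of the 9 partners passed (11.1%, against 11.2% of all genes). This was Bsg, at 0.55 and 0.49 with high fat and at 0.07 and -0.21 with the plain diet. Its difference was 0.59 ± 0.14 (adjusted p = 0.0436). Emb differed the other way and did not pass (-0.46 ± 0.15, adjusted p = 0.0854). Of 11 genes of sugar use 1 fell (9.09%, near the share of all genes). It was G6pc, which releases glucose from its phosphate, by 0.59 ± 0.10 (adjusted p = 0.0176).

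Of 31 genes of amino acid use 4 fell and none rose. That is 12.9%, near the 12% of all genes that passed in either direction, where 5.72% of all genes fell. Cbs and Cth, which make cysteine from homocysteine, fell by 1.10 ± 0.17 (adjusted p = 0.0125) and by 0.84 ± 0.15 (adjusted p = 0.0189). Csad, an enzyme of taurine synthesis, fell by 0.67 ± 0.08 (adjusted p = 0.00742) and Shmt1, which interconverts serine and glycine, by 0.57 ± 0.11 (adjusted p = 0.0235). Between the diets the share was larger: 7 of the 31 passed for high fat over plain (22.6%, against 11.2% of all genes). Higher were Fah (0.92) and Glud1 (0.80). Lower were Ass1 (-1.29), Tdo2 (-1.09), Arg1 (-0.87), Hpd (-0.85) and Glul (-0.56). The Ass1 value on the high-fat 6-week array recurs across many probes. On the same arrays the cystine carrier Slc7a11 and the taurine carrier Slc6a6 had means above chow that did not pass. Array by array these enzymes and carriers did not share one order. Cbs was lowest on the high-fat arrays (-1.53 and -1.33, 24 and 6 weeks), where Slc7a11 was nearest chow (0.03 and 0.30). Cth was lowest on the plain arrays (-0.93 and -1.27), where Slc7a11 was highest (0.64 and 1.43). Csad lay between -0.814 and -0.605, while Slc6a6 ranged between 0.01 and 1.60. A link between them was not tested.

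In the amino acid response list 2 of 27 rose, Eif4ebp1 (0.48 ± 0.10, adjusted p = 0.029) and Ddit3 (0.41 ± 0.09, adjusted p = 0.0341), and 3 fell, Cebpb (-0.74 ± 0.10, adjusted p = 0.00994), Cars (-0.62 ± 0.11, adjusted p = 0.0171) and Aars (-0.39 ± 0.09, adjusted p = 0.0361). Together they made 18.5% of the list, against 12% of all genes. Atf4, Trib3 and Asns of that list were singled out after their values were seen, because they belong with the promoter element printed for Slc7a11. The activator gene Atf4 was at -0.05 and -0.02 with high fat and at 0.14 and 0.08 with the plain diet. For high fat over plain 5 of the 27 genes of the list passed (18.5%, against 11.2% of all genes), 2 higher (Aldh18a1, 0.63, adjusted p = 0.0386, and Atf5, 0.58, adjusted p = 0.0488) and 3 lower (Atf3, -0.63, Trib3 and Vldlr, -0.56). Trib3, a target of Atf4, was at 0.003 and -0.08 with high fat and at 0.53 and 0.57 with the plain diet (difference -0.59 ± 0.14, adjusted p = 0.0411). Asns, whose promoter window holds 1 match to the element, was at -0.05 and -0.12 with high fat and at -0.15 and -0.35 with the plain diet, and its difference of 0.17 ± 0.14 did not pass (adjusted p = 0.444).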

How the data were processed

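Per the series' design text, amplified RNA was labelled and put on the AceGene Mouse Oligo Chip 30K, images came from an Agilent G2505B scanner and GenePix Pro 4.1, and the authors normalized by LOWESS in GeneSpring 7.2. The deposited log ratios were taken to be log10, with diet on top; both are inferred, and no source used here states the background correction or spot filters. LOWESS works on each array as a whole and does not address a dye preference of a single probe, and diet RNA was in Cy5 on every array.

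Values were converted to log2. Probes with 1 platform symbol and a value on all 4 arrays (17229) were averaged per gene, giving 13705 genes. limma 3.58.1 in R 4.3.3 (lmFit, eBayes, two-sided, Benjamini-Hochberg over all 13705) tested the mean of 4 arrays against 0 (3 residual degrees of freedom), and high fat and duration in an additive model (1 residual degree of freedom). The p-values thus reflect the spread between 4 conditions rather than animals, and arrays may share chow samples. The number of arrays limits the precision.

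Sequences are RefSeq's (GRCm38.p6); all 68 members matched by gene identifier, 47 with a promoter window. Members and lists were chosen with earlier results of these data known. Named were members past the threshold, those at least 2-fold from chow on 2 arrays, a set with known roles in liver (29 on the array), and up to 4 genes per list and direction. Families were compared by counts and medians. Alternatives were centring, scaling, probe medians, single probes, missing values, repeated values, robust eBayes, a threshold of 0.10, other models and leaving out each array. Tested on simulated data (200 of 13705 genes changed), changes of 1 and of 2 log2 units were recovered in 92 and 99 of 100 for diet over chow, 91 and 100 for high fat, and 92 and 100 for duration, with 8, 14 and 14 false calls. The simulated noise was normal and independent between genes, with no other effect present. These shares therefore check the code and do not give the power in these data. On the real arrays 0 of 13705 genes passed for duration, and Slc6a6, with a difference of 1.17, did not.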

Additional observations from a re-analysis of the deposited data

Results flagged for a closer look

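The effect over chow differed between the 2 diets for 7 of the 67 fitted members by the test of the difference. High fat minus plain was -0.99 for Slc6a4, -0.87 for Slc7a11, -0.69 for Slc16a4, 0.54 for Slc1a6, 0.55 for Slc6a3, 0.59 for Slc38a3 and 0.73 for Slc7a10. Each rests on 1 residual degree of freedom.

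For 9 further members both high-fat arrays lay on one side of chow and both plain arrays on the other, while the test of the difference did not pass. High fat minus plain was -0.20 for Slc1a5, 0.35 for Slc1a3, 0.21 for Slc5a1, 0.19 for Slc5a2, 0.45 for Slc5a5, 0.41 for Slc6a9, 0.29 for Slc7a12, 0.41 for Slc16a10 and 0.18 for Slc16a11. Both 24-week arrays lay opposite to both 6-week arrays for 3 members, with differences of 24 minus 6 weeks that did not pass either: 0.66 for Slc2a2, -0.32 for Slc5a4a and -0.15 for Slc5a4b. The share of all genes with either pattern was not counted, so neither count sets the members apart. The 2 diets did not overlap for 61.4% of all genes. Slc1a3, Slc5a1, Slc5a2 and Slc6a9 are means of 2 probes, and at least 1 probe of each lacked the pattern. Slc5a4b is a mean of 3 probes, none with the pattern alone.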

How the results depend on the processing

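For diet over chow, 5 members passed (7.46%, against 12% of all genes). The count was 3 with arrays centred on their medians (4.48%, against 10.8%), 13 at a threshold of 0.10 (19.4%, against 21.2%) and 27 with terms for high fat and duration (7 up and 20 down, 40.3%, against 38.1%). It was between 1 and 3 with each array left out in turn (1, Slc6a2, without the plain 24-week array, 1.49% against 2.09%). It stayed between 4 and 6 under the other alternatives. For high fat over plain, 7 passed (10.4%, against 11.2%). The count was 4 with centred arrays (5.97%, against 10.2%), 15 at a threshold of 0.10 (9 higher and 6 lower, 22.4%, against 23.9%), 11 with a probe called on single probes (16.4% of members, against 15.8% of probes) and 0 without the term for duration, where 8 of all genes passed. For 24 over 6 weeks it was 0 throughout. Leaving out an array was not run for high fat or duration, since no residual degree of freedom would remain. Pairing by replicate number was not possible because each condition has 1 array. The term for duration already compares the diets within each duration. The Slc1 median, -0.05, was -0.17 without the 1 member probe at a repeated value, and between -0.12 and 0.0019 with each array left out. The Slc16 median, 0.07, was -0.027 when probes with 3 values were added, which brings in Slc16a3. Means that did not pass changed sign with an array left out for 11 of the 67 members, 4 of them among the 36 named by rule: Slc1a1 (-0.26 to 0.089), Slc1a5 (-0.011 to 0.083), Slc2a2 (-0.0044 to 0.31) and Slc7a2 (-0.23 to 0.0055). The cause was not tested.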
